A study of Mus musculus with 11 samples.

Results

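The 9 genes described here form the axis by which the cytokine GM-CSF acts on alveolar macrophages: the receptor genes Csf2ra, Csf2rb and Csf2rb2, the signalling genes Jak2, Stat5a and Stat5b, and the transcription factor genes Pparg, Bhlhe40 and Bhlhe41. They were chosen by name out of 21883 protein-coding genes. Their peaks were all those inside a gene, within 1000 bp of its ends, or with its end as the nearest protein-coding gene end within 50 kb. This gave 18 of 14731 peaks in naive mice, 13 of 10861 at day 15 and 3 of 3352 at day 30.

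GM-CSF is made in the lung by epithelial cells, and alveolar macrophages need it to develop and to clear surfactant. It binds a receptor of a specific alpha chain and a common beta chain. The kinase JAK2, held by the beta chain, then phosphorylates STAT5, which moves to the nucleus. In the developing lung GM-CSF induces PPAR-gamma, a nuclear receptor for fatty acid ligands that sets the lipid-handling programme of the alveolar macrophage. BHLHE40 and BHLHE41 are related repressors that maintain the identity and self-renewal of these cells.

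The cells were alveolar macrophages, sorted from C57BL/6 mouse lungs, and their accessible DNA was mapped by ATAC-seq, which cuts and tags open chromatin with a transposase. There were 4 naive samples without tumours, 4 samples taken 15 days after tail vein transfer of KP or KP-GFP lung tumour cells, and 3 taken 30 days after it. Age and sex were not given in the sources used here, nor whether a sample pools animals. Each group has 1 peak list, so no value has a replicate error, no test between conditions was possible, and 95% intervals cover counting error of the tags only. Tags without molecular identifiers are not independent molecules.

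The naive, day 15 and day 30 lists had a genome-wide background of 0.785, 1.871 and 1.645 tags per 200 bp, so the tumour lists were 2.38 and 2.1 times as deep. The lowest summit pileup in a list was 6, 9 and 9 tags. A summit pileup is the number of tags, as counted by the peak caller, over the highest point of a peak, and a scaled pileup is that number divided by the list's genome-wide background. The excess is the scaled pileup above the background. A lower value in bulk cells may mean fewer cells with the region open or less opening in each cell, and these cannot be told apart. A scaled pileup also depends on how the tags of a list divide between peaks and background. That division may differ between lists for technical reasons, which was not tested. The excess was below the naive one at 99.6% of all peaks shared with day 15 and 99.7% of those shared with day 30. A boundary peak is a peak within 1000 bp of a gene's end. Of all protein-coding genes, 34.7%, 29.6% and 12.8% had one in the naive, day 15 and day 30 lists. Among markers of the labelled cell type, 6, 3 and 0 of 14 alveolar macrophage genes had one in these lists. The 6 include Csf2ra and Pparg themselves. Siglecf, Marco, Fabp4, Car4, Chil3, Ear1 and Krt79 had none in any list. Of 8 general macrophage genes 6, 5 and 1 had one, and of 7 monocyte or interstitial macrophage genes 1, 1 and 0. T cell genes numbered 2, 2 and 0 of 6, with summed scaled pileups of 35.7, 18.2 and 0.0, and neutrophil genes 2, 2 and 1 of 5, with 44.6, 16.6 and 7.3. Cd3e, Cd3g, Lck, Thy1, S100a9, Ly6g and Csf3r had no boundary peak, and the 15 B cell, epithelial and endothelial genes had none. The part of other cells in the values below was not tested.

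RefSeq promoter windows of the GRCm38.p6 assembly, the build called mm10, were found for 7 of the 9 members, 11 windows in all. Those shown are the 5 that a peak overlapped in at least 1 list. Each gives the 250 bases before the annotated start, 5′ to 3′ on the gene's strand, with matches to searched motifs in capitals. They are chr19:61228419-61228668 on the minus strand for Csf2ra, and on the plus strand chr19:29251553-29251802 for Jak2, chr11:100860234-100860483 for the second of 2 Stat5a windows, and chr6:115360894-115361143 and chr6:115421816-115422065 for the first and the third of 3 Pparg windows.
Csf2ra: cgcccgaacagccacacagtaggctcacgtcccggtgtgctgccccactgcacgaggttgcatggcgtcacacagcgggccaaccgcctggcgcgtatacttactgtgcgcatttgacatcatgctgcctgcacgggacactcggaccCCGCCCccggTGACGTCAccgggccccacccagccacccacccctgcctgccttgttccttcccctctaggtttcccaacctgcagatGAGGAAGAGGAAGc
Jak2: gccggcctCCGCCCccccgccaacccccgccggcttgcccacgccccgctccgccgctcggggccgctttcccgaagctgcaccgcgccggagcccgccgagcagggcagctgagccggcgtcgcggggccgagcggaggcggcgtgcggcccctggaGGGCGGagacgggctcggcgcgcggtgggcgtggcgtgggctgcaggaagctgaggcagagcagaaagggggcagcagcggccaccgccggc
Stat5a: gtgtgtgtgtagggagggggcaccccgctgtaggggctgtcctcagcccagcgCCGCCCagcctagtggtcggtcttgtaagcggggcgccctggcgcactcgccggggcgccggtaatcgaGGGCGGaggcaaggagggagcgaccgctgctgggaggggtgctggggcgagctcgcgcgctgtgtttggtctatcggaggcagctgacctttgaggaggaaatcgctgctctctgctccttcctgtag
Pparg, start 1: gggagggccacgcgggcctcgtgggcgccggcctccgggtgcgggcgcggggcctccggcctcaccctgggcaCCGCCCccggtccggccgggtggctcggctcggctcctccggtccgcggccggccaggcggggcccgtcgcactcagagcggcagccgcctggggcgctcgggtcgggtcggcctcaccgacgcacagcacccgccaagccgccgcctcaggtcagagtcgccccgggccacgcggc
Pparg, start 3: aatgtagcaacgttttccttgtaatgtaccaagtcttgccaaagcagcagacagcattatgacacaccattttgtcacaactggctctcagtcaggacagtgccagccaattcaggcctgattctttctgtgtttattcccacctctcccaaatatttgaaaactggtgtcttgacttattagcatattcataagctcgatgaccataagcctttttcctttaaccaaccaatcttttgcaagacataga

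Motifs were searched on both strands of the whole windows of 300 bases, which run 50 bases past the start. The Csf2ra window held a cyclic AMP response element (TGACGTCA), found in 1.79% of the 32851 promoter windows of the table. It also held a pair of PU.1 cores (GAGGAAG, 13.6% of windows) that share a G, the first beginning 14 bases before the start, and a GC box (GGGCGG, 35.7%). The windows of Jak2, Stat5a and the first Pparg start had GC boxes and no other match, and the third Pparg start had none. GC content was 65.3% at Csf2ra, 81.0% at Jak2, 67.7% at Stat5a and 80.3% at the first Pparg start, but 40.3% at the third, where the median of all windows was 52.7%. The STAT motif TTCNNNGAA (8.3% of windows), the AP-1 motif TGANTCA (7.81%), the E-box CACGTG (7.15%) and a DR1 element (0.0396%) had no match in these 5. Among the other member windows, Csf2rb2 had the STAT motif and 2 PU.1 cores and Bhlhe41 had the E-box bound by BHLHE factors, with no peak over either window.

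Boundary peaks lay at 6 of the 9 members in the naive list, Csf2ra, Csf2rb, Jak2, Stat5a, Pparg and Bhlhe40, at 5 in the day 15 list, and at Jak2 and Bhlhe40 in the day 30 list. Over all protein-coding genes the shares were 34.7%, 29.6% and 12.8%. Pparg was the 1 member of 6 with a naive boundary peak and none at day 15 (20.4% of all such genes). None of the 3 members without a naive boundary peak had one at day 15, where 3.04% of all genes without one did. By day 30, 4 of the 6 naive members had none (63.5% of all genes with a naive one). Of the 5 day 15 members, 3 had none at day 30 (57.9% of all genes with one at day 15). Of the 9 members, a larger share than of all genes thus had a boundary peak, while the shares without one later were near those of all genes; with 9 members neither was tested. With every list cut to its 3352 strongest peaks, no member had a boundary peak in the naive or day 15 list, and with a −log10 q of at least 5 none had one at day 30. Csf2rb2, Stat5b and Bhlhe41 had no boundary peak in any list, which held for 63.2% of protein-coding genes.

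**Figure D1:**
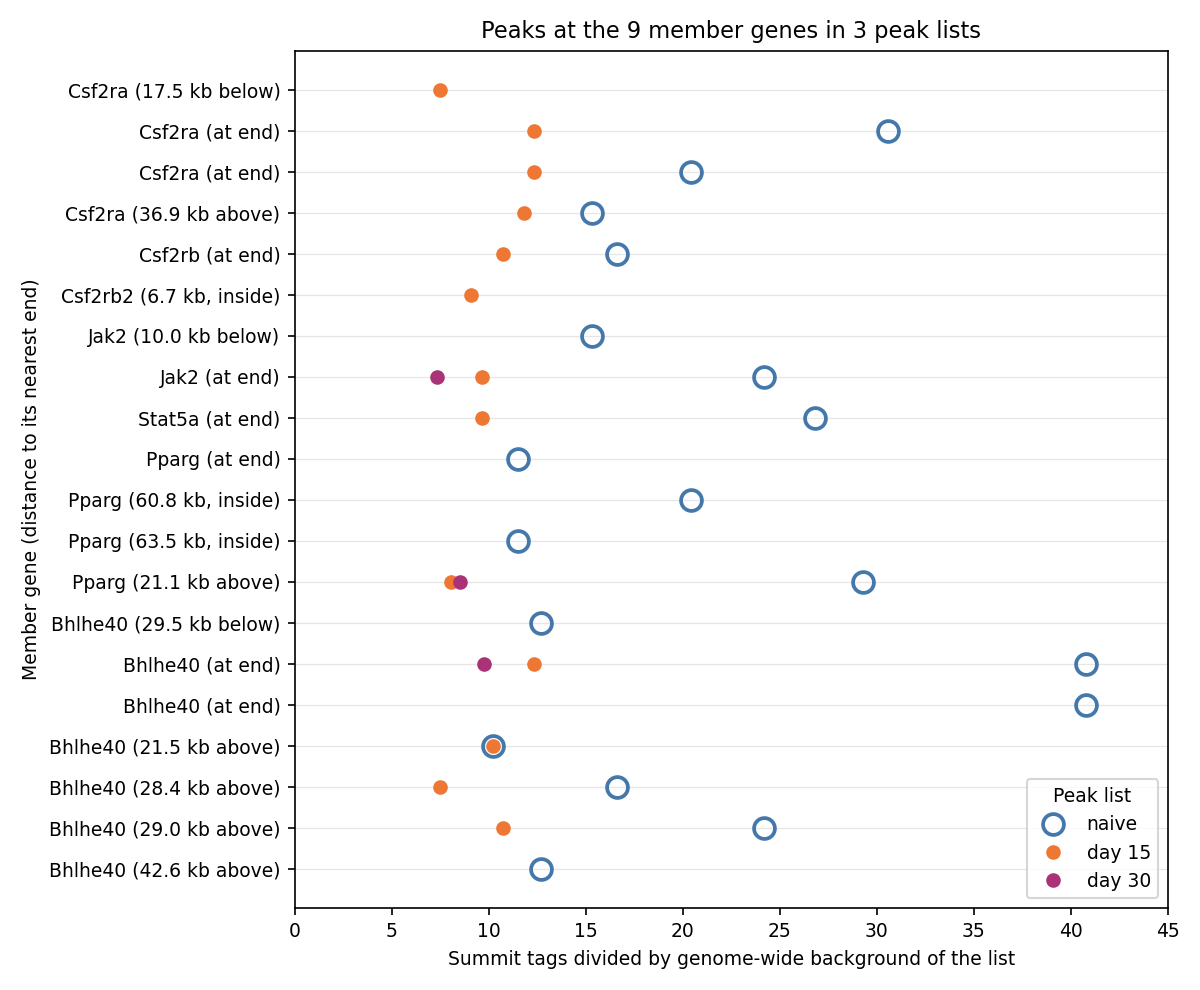
Scaled pileup (summit tags divided by the genome-wide background of the list, x axis) of each of the 20 regions at member genes (y axis, with distance to the nearest end of the member, and above or below for higher or lower coordinates). Naive values, open circles, lie to the right of the later ones in every shared region except Bhlhe40 at 21.5 kb, where day 15 and naive are both 10.2; a missing symbol means no peak in that list.

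Peak by peak, 11 of the 18 naive member peaks overlapped a day 15 peak by at least 1 bp (64.1% of all naive peaks did) and 3 overlapped a day 30 peak (21.7%). Of naive boundary peaks 6 of 8 overlapped a day 15 peak (75.1% overall), and of the others 5 of 10 (54.0%). In the reverse direction, 11 of 13 day 15 member peaks overlapped a naive peak (87.2%), and all 3 at day 30 did (96.5%). Of the 13 day 15 peaks, 3 overlapped a day 30 peak (28.7%). Merged over lists, the peaks made 20 regions, of which 7 were in the naive list only, 8 in the naive and day 15 lists, 3 in all lists and 2 in the day 15 list only.

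Csf2ra, which encodes the alpha chain that recognises GM-CSF, kept all 3 of its naive regions at day 15 and had none at day 30. The gene lies on chromosome 19 (61217191 to 61228461, minus strand). A peak over its start had 23 tags at day 15 (61228332 to 61228631; 95% interval 14.6 to 34.5) and 16 in the naive list (61228358 to 61228671; 9.15 to 26.0), with scaled pileups of 12.3 and 20.4 and a −log10 p, by the authors, of 10.7 and 9.81. This is the peak over the promoter printed above. A second peak, inside the gene within 1000 bp of that end, had 23 tags at day 15 (61227216 to 61227777) and 24 in the naive list (61227113 to 61227482), scaled 12.3 and 30.6. The authors' fold at this second peak was 4.78 at day 15 and 7.91 in the naive list.

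Farther out, an intergenic Csf2ra peak 36.9 kb above the start had 22 tags at day 15 (61265407 to 61265672) and 12 in the naive list (61265446 to 61265674). Its scaled pileup was 11.8 at day 15 and 15.3 in the naive list, a ratio of the excess of 0.753 (95% interval 0.336 to 1.8). That ratio was higher than at 96.1% of all shared peaks. Among the 1370 shared peaks whose naive pileup was within 1 tag of 12, it was higher than at 91.2%. A peak 17.5 kb below the gene (61199504 to 61199713, 14 tags, fold 5.07) was in the day 15 list only. Scaled to the naive depth its 14 tags are 5.87, close to the lowest pileup of any naive peak, 6. The same level was thus near the limit of what the naive list could show, and counting error could put it on either side. This holds for an equal scaled level only. At 99.6% of all shared peaks the naive excess was the higher one, and such a higher level might have been called. Of day 15 peaks of like p (the same of 10 equal bins), 78.0% overlapped a naive peak. With 4 peaks nearest to it at day 15, Csf2ra was among the 0.772% of protein-coding genes with at least as many.

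Csf2rb encodes the common beta chain, shared by the receptors for GM-CSF, IL-3 and IL-5, and Csf2rb2 a mouse beta chain used by IL-3. The genes are neighbours on chromosome 15 and close copies, so reads in their similar parts could be split between them; no source used here says how such reads were placed. A peak across the lower end of Csf2rb had 20 tags at day 15 (78325738 to 78326194; 95% interval 12.2 to 30.9) and 13 in the naive list (78325728 to 78326178; 6.92 to 22.2), with scaled pileups of 10.7 and 16.6. The day 30 list had none. Csf2rb2 had a single peak, at day 15 only, inside the gene 6.75 kb from its nearest end (78298711 to 78298975), with 17 tags, a fold of 6.27 and a local background equal to the genome-wide one. Scaled to the naive depth those 17 tags are 7.13, where the lowest naive pileup was 6. This too takes an equal scaled level, and the naive excess was the higher one at 99.6% of all shared peaks. With day 15 peaks put into 10 equal bins by p, 91.9% of the bin of this peak overlapped a naive peak.

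Jak2, the kinase bound to the beta chain, was 1 of 2 members with a boundary peak in every list. Its peak at the start on chromosome 19 had 19 tags in the naive list (29251136 to 29251868), 18 at day 15 (29251202 to 29251600) and 12 at day 30 (29251566 to 29251765), with 95% intervals of 11.4 to 29.7, 10.7 to 28.4 and 6.2 to 21.0. Scaled, these were 24.2, 9.62 and 7.3. The position differed too: the summits lay 505, 499 and 85 bp below the annotated start, and the day 15 and day 30 peaks shared 35 bp. The single wide naive peak spans both positions and reaches across the start, over the window printed above. A second naive peak, 9.99 kb below the gene in the long noncoding RNA gene Gm41829 (29241583 to 29241814, 12 tags), had no overlapping peak at day 15 or day 30. At the median ratio of all shared peaks it would have had 13.0 tags at day 15, where the lowest pileup was 9. Of the naive peaks in its bin by p, 55.7% overlapped a day 15 peak.

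Of the neighbouring STAT5 genes on chromosome 11, which encode close relatives that carry the receptor signal to the nucleus, Stat5a had 1 peak and Stat5b none. They are near copies too, with the same doubt about shared reads. The Stat5a peak had 18 tags at day 15 (100860293 to 100860607) and 21 in the naive list (100860277 to 100860615), scaled 9.62 and 26.8, and folds of 5.03 and 7.28. It covers the second of the annotated Stat5a starts, inside the gene, and not the first. Day 30 had none. Both Stat5b promoter windows were without a peak in every list, including one with a GC content of 82.7% and 3 GC boxes.

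**Figure D2:**
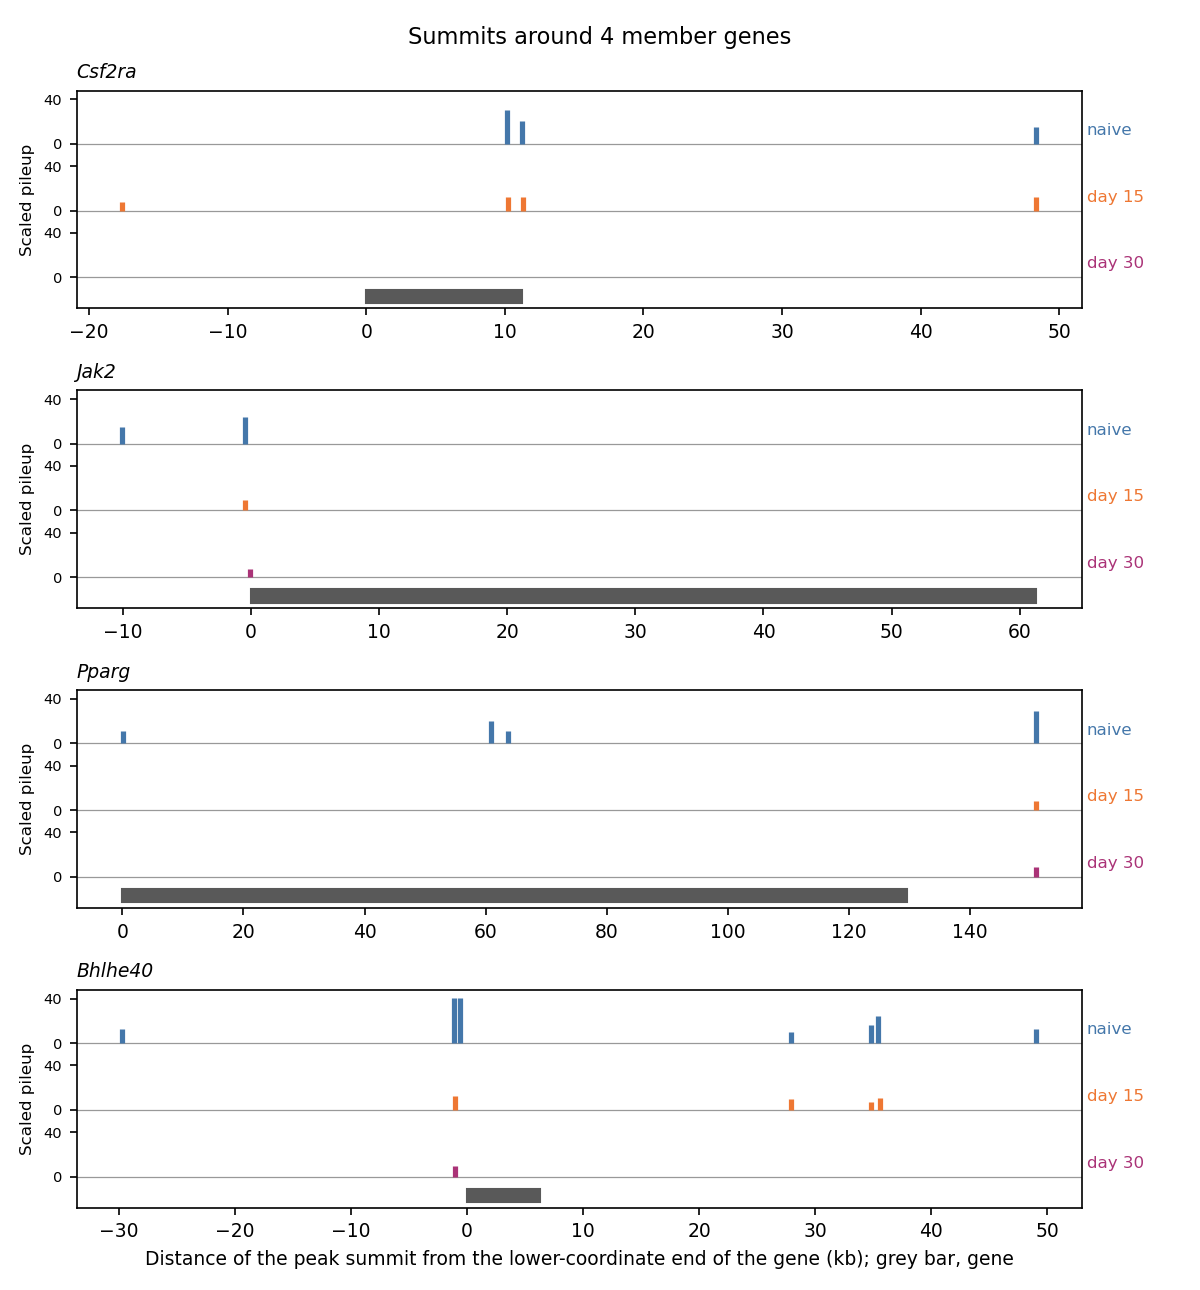
Summits around Csf2ra, Jak2, Pparg and Bhlhe40: x axis, distance of the summit from the lower-coordinate end of the gene in kb; bar height, scaled pileup in the naive, day 15 and day 30 lists; grey bar, the gene. The inner Pparg peaks are in the naive row only, and the Pparg peak beyond the upper end of the gene is in all 3 rows.

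Pparg had 4 naive peaks, of which only the one outside the gene was found again. The naive peak at the first start (115360972 to 115361375 on chromosome 6) had 9 tags (95% interval 4.12 to 17.1), ranking 13537 of 14731 by p. Inside the gene, a naive peak at 115421690 to 115422112 covered the third annotated start, the GC-poor window printed above, with 16 tags (9.15 to 26.0), a fold of 7.66 and rank 6128. A further naive peak at 115424411 to 115424610 had 9 tags. Alternative starts of this gene give protein isoforms that differ at the amino end; which transcript was made cannot be read from these lists.

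Neither the day 15 nor the day 30 list had a peak at these 3 places. With naive peaks put into 10 equal bins by p, 25.8% of the bin of the 9-tag peaks overlapped a day 15 peak, as did 70.4% of the bin of the 16-tag peak. At the median ratio of all shared peaks, the 9-tag peaks would have had 10.1 tags at day 15 and the 16-tag peak 17.0, where the lowest pileup of any day 15 peak was 9. Absence of the 9-tag peaks is therefore near the limit of what the day 15 list could show, and absence of the peak at the third start less so.

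The outer Pparg peak lay 21.1 kb above the end of the gene, in the long noncoding RNA gene Gm36301. It had 23 tags in the naive list (115511511 to 115511972; 95% interval 14.6 to 34.5), 15 at day 15 (115511484 to 115511893; 8.4 to 24.7) and 14 at day 30 (115511727 to 115511940; 7.65 to 23.5). Scaled, these were 29.3, 8.02 and 8.51, and the authors' folds were 9.6, 5.3 and 4.41. With rank 2849 it was the only naive member peak within the number of peaks that the day 30 list holds, 3352. Its ratio of excess at day 15 over naive, 0.248 (0.109 to 0.525), was the lowest of the 11 shared member peaks, and 2.71% of all shared peaks were lower. The later summits lay 25 and 24 bp from the naive one.

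Bhlhe40 had 7 naive peaks, 4 at day 15 and 1 at day 30. Only 27 protein-coding genes, 0.123%, had at least 7 naive peaks nearest to them. The gene lies at 108660629 to 108666925 on chromosome 6, and a pair of naive peaks lay below its lower end, both in the long noncoding RNA gene 0610040F04Rik. The outer one (108659375 to 108659679) had 32 tags in the naive list (95% interval 21.9 to 45.2), 23 at day 15 (108659374 to 108659793; 14.6 to 34.5) and 16 at day 30 (108659516 to 108659799; 9.15 to 26.0). Scaled, that is 40.8, 12.3 and 9.73; the naive value is the highest of any member peak, level with that of the inner one.

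The inner peak of the pair, 23 bp from the gene (108659865 to 108660606), also had 32 naive tags and had no overlapping peak at day 15 or day 30. Of the naive peaks in its bin by p, 90.2% overlapped a day 15 peak. The day 15 peak ended 71 bases short of it and the day 30 peak 65 bases short. At the median ratio of all shared peaks, 0.418, it would have had 33.0 tags at day 15. Peaks of a local background within 0.5 of that at this end, 5.08 tags, were called there from 17 tags upward. Among shared peaks with a naive pileup within 1 tag of 32 the median ratio was 0.353, and the outer peak had 0.284. At those ratios the inner peak would have had fewer than 33.0 tags. The naive local background was raised here, 6.01 and 6.12 times the genome-wide one at the outer and inner peak, against 2.72 times at day 15 and 2.19 times at day 30 at the outer peak; its part in the result was not tested.

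**Figure D3:**
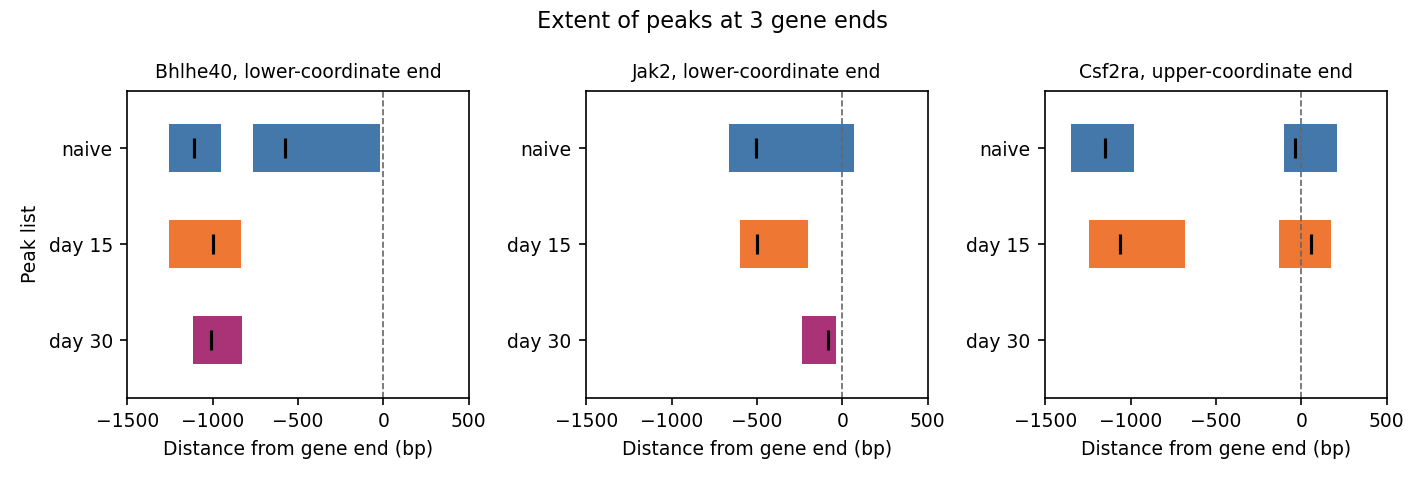
Extent of the boundary peaks at Bhlhe40, Jak2 and Csf2ra in each list (rows), by distance from the gene end in bp (dashed line; negative values are lower coordinates); black ticks are summits. At Bhlhe40 the naive peak nearest the gene has no counterpart later, at Jak2 the day 30 peak lies nearer the gene than the day 15 one, and at Csf2ra the day 30 row is empty.

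Above the gene, naive mice had 4 intergenic Bhlhe40 peaks, of which the outermost, 42.6 kb away with 10 tags, was not found at day 15. Nor was a peak 29.5 kb below the gene, also with 10 naive tags. At the median ratio of all shared peaks each would have had 11.1 tags at day 15, where the lowest pileup was 9. Of the naive peaks in their bins by p, 25.8% and 40.3% overlapped a day 15 peak. Both absences are thus near the limit of what the day 15 list could show. The peak 21.5 kb above the gene had 19 tags at day 15 (108688389 to 108688685) and 8 in the naive list (108688453 to 108688744), the same scaled pileup of 10.2 in both. Its ratio of the excess was 0.996 (95% interval 0.381 to 3.07), higher than at 99.6% of all shared peaks and than at 94.1% of the 320 shared peaks whose naive pileup was within 1 tag of 8. The next pair had 14 and 20 tags at day 15 (108695330 to 108695861 and 108696002 to 108696288) and 13 and 19 in the naive list (108695372 to 108695619 and 108695905 to 108696272), with ratios of 0.417 and 0.418. None of these outer regions was in the day 30 list. Bhlhe41, the close relative of Bhlhe40, had no peak by any part of the rule in any list.

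At the 11 member peaks shared by day 15 and naive lists, the ratio of the excess was below 1 in every case, though only just so at the Bhlhe40 peak 21.5 kb away (0.996). It was below 1 at 99.6% of all 9443 shared peaks. The ratio had a median of 0.417, between 0.248 and 0.996, and over all shared peaks a median of 0.418 with quartiles of 0.352 and 0.526. Counting intervals lay below 1 at 6 of the 11 and included 1 at 5. Summed over the 11, the ratio was 0.426 (95% interval 0.345 to 0.527). At day 30, the 3 shared member peaks had ratios of 0.219 at Bhlhe40, 0.265 at Pparg and 0.271 at Jak2. The median was 0.279 over 3193 shared peaks. Summed over the 3, the ratio was 0.247 (0.157 to 0.377). The naive and day 30 Jak2 summits lay 420 bp apart, so the Jak2 ratio, also part of the sum, compares tags at different places. The members as a set thus lay at the level of all shared peaks. The order within the set followed the naive pileup in part. The 4 peaks above the overall median at day 15 had 8, 12, 13 and 16 naive tags. Over all shared peaks, those with 7 to 9 naive tags had a median ratio of 0.684 and those with 31 to 33 one of 0.353. Only peaks called in both lists have a ratio, so a weak naive peak counts only where day 15 reached its calling level. The part of this in the order was not tested. Naive member peaks without a day 15 overlap are outside these values.

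**Figure D4:**
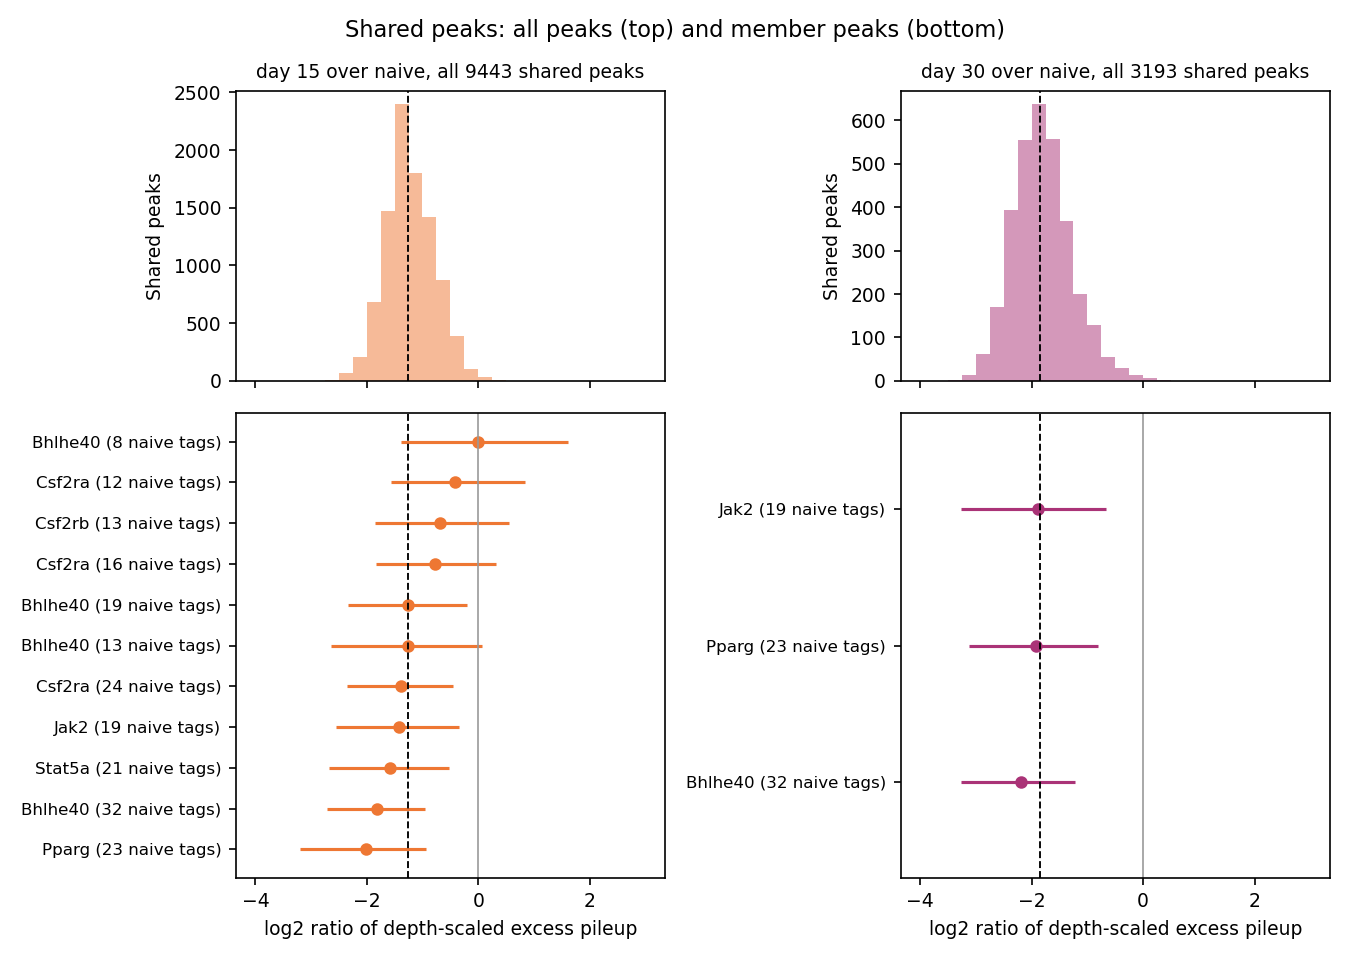
Ratio of depth-scaled excess pileup (log2, x axis), day 15 over naive on the left and day 30 over naive on the right: histogram of all shared peaks above, and each shared member peak below with its 95% counting interval. The dashed line is the median of all shared peaks, 0.418 at day 15 and 0.279 at day 30, and the member peaks lie on both sides of it at day 15.

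Other genes of the axis were read from 3 lists with no member in them. Of 32 GM-CSF receptor signalling genes, 23, 18 and 5 had a boundary peak in the naive, day 15 and day 30 lists. The shares of all protein-coding genes were 34.7%, 29.6% and 12.8%. Those with one in naive and day 15 lists included Il3ra, the IL-3 receptor alpha chain (16 tags at day 15, 23 in the naive list), and the kinase gene Jak1 (23 and 32). The Il3ra peaks of the day 15 and naive lists do not overlap, so their tags belong to different places. The 5 with none at day 15 were Socs1 and Ptpn6, which restrain cytokine signalling, and Myc, Ptpn11 and Grb2, with 20, 13, 13, 14 and 9 naive tags. This is 21.7% of the 23, beside 20.4% of all genes. In all lists were Stat3, Cish, Socs2, Cbl and Pik3r1, 21.7% of the 23, beside 36.5% over all genes. Cish, a feedback inhibitor that STAT5 induces, had 32, 23 and 16 tags in the naive, day 15 and day 30 lists, scaled 40.8, 12.3 and 9.73, the same tag numbers as the outer Bhlhe40 peak. Socs2, another STAT5 target, had 20, 17 and 17, scaled 25.5, 9.09 and 10.3.

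Among 28 PPAR-gamma partners and targets, 14, 8 and 0 had a boundary peak in the naive, day 15 and day 30 lists. Of all protein-coding genes 34.7%, 29.6% and 12.8% had one. The 8 kept at day 15 included Rxrb, a retinoid X receptor of the family that pairs with PPAR-gamma (17 tags at day 15, 13 in the naive list), and the corepressor gene Ncor1 (28 and 17). Scaled to depth, the values were 9.09 and 16.6 for Rxrb and 15.0 and 21.7 for Ncor1. The Rxrb peak lay nearest to Slc39a7. Ppargc1b, a coactivator gene also counted among the 8, had its strongest day 15 and naive peaks at places that do not overlap. Lpl, which encodes lipoprotein lipase, had 26 tags at day 15 and 14 in the naive list, and Plin2, a lipid droplet coat, had 23 and 20. Scaled, these were 13.9 and 17.8 for Lpl and 12.3 and 25.5 for Plin2, lower at day 15 in both. With none at day 15 were the coactivator genes Ncoa1 and Med1 (8 naive tags each), the fatty acid binding protein gene Fabp5 (13), the droplet gene Cidec (15), the cholesterol exporter gene Abca1 (16) and Nr1h3, whose naive peak (15 tags) lay nearest to Madd. These 6 are 42.9% of the 14, beside 20.4% of all genes. None of the 14 had a boundary peak at day 30, where 36.5% of all genes with a naive one did. The median naive pileup of the 14 was 15 tags, beside 19 for every gene with such a peak; that median was 12 for genes with none at day 15 and 21 for genes kept. Within the list the same medians were 14 and 15.5 tags. No test of the list was made.

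Of 24 genes of the alveolar macrophage programme, 12, 10 and 4 had a boundary peak in the naive, day 15 and day 30 lists. Beside these stand 34.7%, 29.6% and 12.8% of all protein-coding genes. Those with one in naive and day 15 lists included the transcription factor genes Cebpa (46 tags at day 15, 38 in the naive list) and Cebpb (32 and 29). Scaled, these were 24.6 and 48.4 for Cebpa and 17.1 and 37.0 for Cebpb, lower at day 15 in both. With none at day 15 were Klf4, the integrin gene Itgax, Ear2 and Perp, with 23, 8, 11 and 12 naive tags, or 33.3% of the 12, beside 20.4% of all genes. Mrc1, the mannose receptor gene, and Tfec had a boundary peak at day 15 and none in the naive list, with 13 and 14 tags at 2.38 times the naive depth. Scaled to the naive depth, 14 tags are 5.87, where the lowest naive pileup was 6. Either level was thus near the limit of what the naive list could show. Cebpa, Tgfbr1, Id2 and Perp had one at day 30, with 22, 18, 24 and 12 tags, which is 33.3% of the 12, beside 36.5% of all genes.

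**Figure D5:**
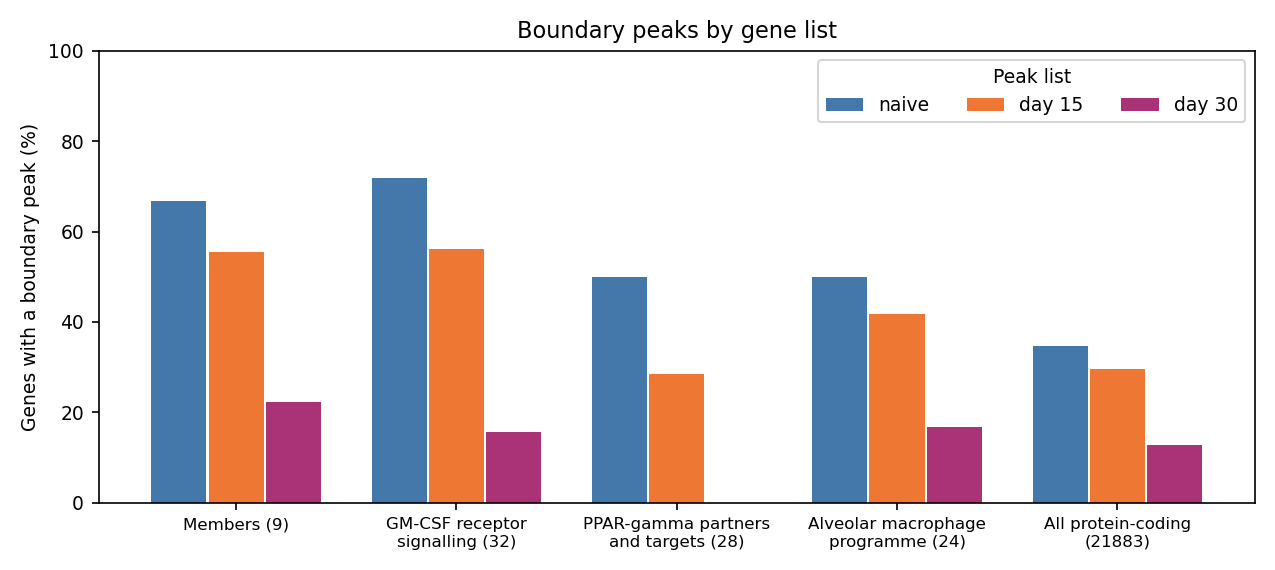
Share of genes with a boundary peak (%) in the naive, day 15 and day 30 lists for the 9 members, for 3 lists of related genes (number of genes in brackets) and for all protein-coding genes. All 5 sets are lower at day 30 than in the naive list, and the PPAR-gamma list has no bar at day 30.

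By pattern over the lists, Jak2 and Bhlhe40 had a boundary peak in all 3, as did 12.4% of protein-coding genes, among them Stat3, Cish and Socs2. Csf2ra, Csf2rb and Stat5a had one in the naive and day 15 lists, like 15.2% of genes, among them Il3ra, Jak1 and Tyk2. Pparg, with a naive one only, shared its pattern with 6.83% of genes, among them Socs1, Myc and Ptpn6. The likeness counts presence in 3 lists and nothing else. Pparg also had its outer peak in every list, which this pattern does not count.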

How the data were processed

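Peak lists of 3 groups were used, 1 list for each (4 naive, 4 day 15 and 3 day 30 samples, 11 in all; the series' design text speaks of triplicates). Whether reads were pooled before peak calling, and how they were filtered or shifted, was not given by any source used here. The submitters' processing notes name mm10, Bowtie2 2.3.4.1 and MACS2 2.1.1. The deposited columns have no header and were read from their values: a score (10 times −log10 q, cut to a whole number), the fold (ratio) of the summit over local background, and −log10 p. Score, fold and p are the authors' own for each list and served to describe or rank peaks within it.

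Summit pileup and local background were recovered from the fold, (pileup + 1) / (background + 1), and from p, a Poisson tail, which every peak met within 0.001 (−log10 scale). Local backgrounds fell on steps of 0.02 tags, as 200 bp tags in 10 kb windows give, above a floor per list, taken as the genome-wide background and used as depth. Where 2 solutions fitted, the one with a background not below that floor was taken. On peaks simulated with the same formula and the recovered backgrounds, 100.0% of pileups came back in each list. This checks the inversion and cannot check the formula or the depth. Peaks matched when they shared at least 1 bp, pairing the largest overlap. Ratio intervals are exact conditional binomial ones on tags, and pileup intervals exact Poisson ones (95%). Genes came from a RefSeq table of GRCm38.p6, which has no exons; motifs were searched in RefSeq promoter windows. Coordinates are 1-based on mm10.

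The members, lists, alternatives and named genes were chosen with earlier results of these data known. All 9 members were named. From each related list, in list order, up to 4 genes whose boundary peak status differed at day 15, up to 2 with one in both lists and up to 3 at day 30 were named, and up to 3 per presence pattern; Grb2, Cbl, Pik3r1, Abca1, Nr1h3, Ppargc1b, Plin2, Lpl, Tfec and Perp were named after their values were seen. Python 3.11.15, numpy 2.4.6, pandas 2.3.3, scipy 1.17.1 and matplotlib 3.10.9 were used.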

Additional observations from a re-analysis of the deposited data

How the results depend on the processing

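Of 75 values recomputed under 10 alternatives for 11 results, 58 stayed close to the reported one (a count within 1.5 times, a ratio within its interval) and 17 did not. With lists cut to the 3352 peaks of the shortest, members with a boundary peak were 0 at day 15 and 0 in the naive list, member peaks were 0 at day 15 and 1 in the naive list, and shared peaks 0 in either direction at day 15 and 1 at day 30. With a −log10 q of at least 5, the day 30 list had 0 member peaks, 0 members with a boundary peak and 0 shared peaks. With a window of 500 bp, 3 members had a boundary peak at day 15 and 1 at day 30. With a reciprocal overlap of 50%, 1 naive peak overlapped a day 30 peak. With nearest ends within 20 kb, member peaks were 8 at day 15 and 11 in the naive list, and 6 were shared in either direction. The summed pileup ratios stayed within their intervals in each alternative that gave a value: 0.397 to 0.451 at day 15 and 0.219 to 0.271 at day 30. The equal-length lists gave no day 15 ratio and the stricter threshold no day 30 ratio, since no member peak was then shared. No sample could be left out, and no paired analysis was possible because each group has a single peak list. No peak was called from fewer than 6 tags (naive), 9 (day 15) or 9 (day 30), which limits what an absent peak can show.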
